A study of Drosophila melanogaster with 30 samples.

Results

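The genes described here encode the light-detection machinery of the fly photoreceptor, and their transcripts were followed through 10 diet histories in adult virgin males of Drosophila melanogaster. The set was chosen with earlier results of these data known, as Arr1, Arr2, trp, trpl, ninaE, Rh3, Rh4, Rh6, norpA and inaD. A gene entered when a probe set of the array carried its symbol alone. Of these 10 genes, 5 had such a probe set, with 1 each, among the 15309 probe sets of the array: Arr1, Arr2, trp, trpl and inaD. The rhodopsin genes ninaE, Rh3, Rh4 and Rh6 and the phospholipase gene norpA were not analysed here, so that no visual pigment of the set is among the values below.

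RNA was measured on 30 Affymetrix arrays, 3 for each diet history, in males from a laboratory stock founded with field-collected flies. Each generation developed on poor or rich food, written here as P and R with the oldest generation first and the fly's own food last. The F0 males were raised rich (R) or poor (P). The F1 males had rich-raised parents and were raised rich (R-R) or poor (R-P), or had poor-raised parents and were raised rich (P-R) or poor (P-P). The F2 males had F1 parents that were all raised rich, with rich-raised grandparents (R-R-R and R-R-P) or poor-raised grandparents (P-R-R and P-R-P). All 10 groups are males of the same stock that were frozen directly, and the labels name no tissue, number of flies, food recipe, age or time of day. Nothing in the labels ties the 3 arrays of a group to separate cultures, and the p-values therefore measure array-to-array spread that could be technical.

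In the fly eye, light turns rhodopsin into its active form, which acts through a G protein on the phospholipase C encoded by norpA. The lipid products of that reaction lead to the opening of the cation channels TRP and TRPL, and the scaffold protein INAD holds TRP, the phospholipase and an eye protein kinase C together. Arrestins bind active rhodopsin and end the response, and in flies Arr2 is the major arrestin and Arr1 the minor one.

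The samples held transcripts of several organs, and 4 arrays stood apart. Of 10 testis markers 4 were bright (dj, Mst84Da, Mst87F and betaTub85D, at means of 5.0 to 8.34) and the other 6 lay between 0.26 and 1.36, and of 5 accessory gland markers 4 averaged 3.07 to 8.39 and Acp26Aa 0.99. The eye gene chp averaged 5.26, while the eye markers Hdc and gl lay near the floor of the scale at 0.87 and 0.33. The 11 measured ovary and yolk markers averaged 2.95 on replicate 2 of R-P and 3.87 on replicate 2 of P-R-R, against 0.27 to 0.53 on the other 28 arrays. Replicates 1 and 3 of R-R read 4.20 and 3.53 for the storage protein gene Lsp2, against 5.40 to 7.63 on the 28 arrays besides these, and 4.65 and 5.21 for the mean of 5 muscle markers, against 5.28 to 6.35. Many averages, interactions and marker calls that use these 4 arrays are also given without some or all of them.

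The main question was whether these genes follow the food on which a fly itself developed, whatever its ancestors ate. All 5 measured genes had lower means in poor-raised than in rich-raised males on average over the 5 pairs of groups, and 3 of them, Arr1, Arr2 and trpl, passed the test and fell. Each difference is the poor-raised minus the rich-raised mean in log2 units, followed by its standard error in the model, taking the deposited values as base-2 logarithms, a base that the sources used here do not state (with natural logarithms each difference would be 1.44 times larger). The channel gene trpl fell by 0.51 ± 0.11, Arr1 by 0.38 ± 0.07 and Arr2 by 0.37 ± 0.08. A gene was called at an adjusted p under 0.05 in limma, with Benjamini-Hochberg adjustment over all 15309 probe sets, and the background of such calls was 1.84 percent of probe sets (281), or 0.98 percent (150) for calls lower in poor-raised males. The median difference was -0.37 over the 5 genes and -0.01 over all probe sets. Because the genes were chosen with earlier results of these data known, these shares are a description and no independent test of the set. In bulk RNA, fewer photoreceptor cells in a sample and less RNA per photoreceptor cannot be told apart.

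**Figure D1:**
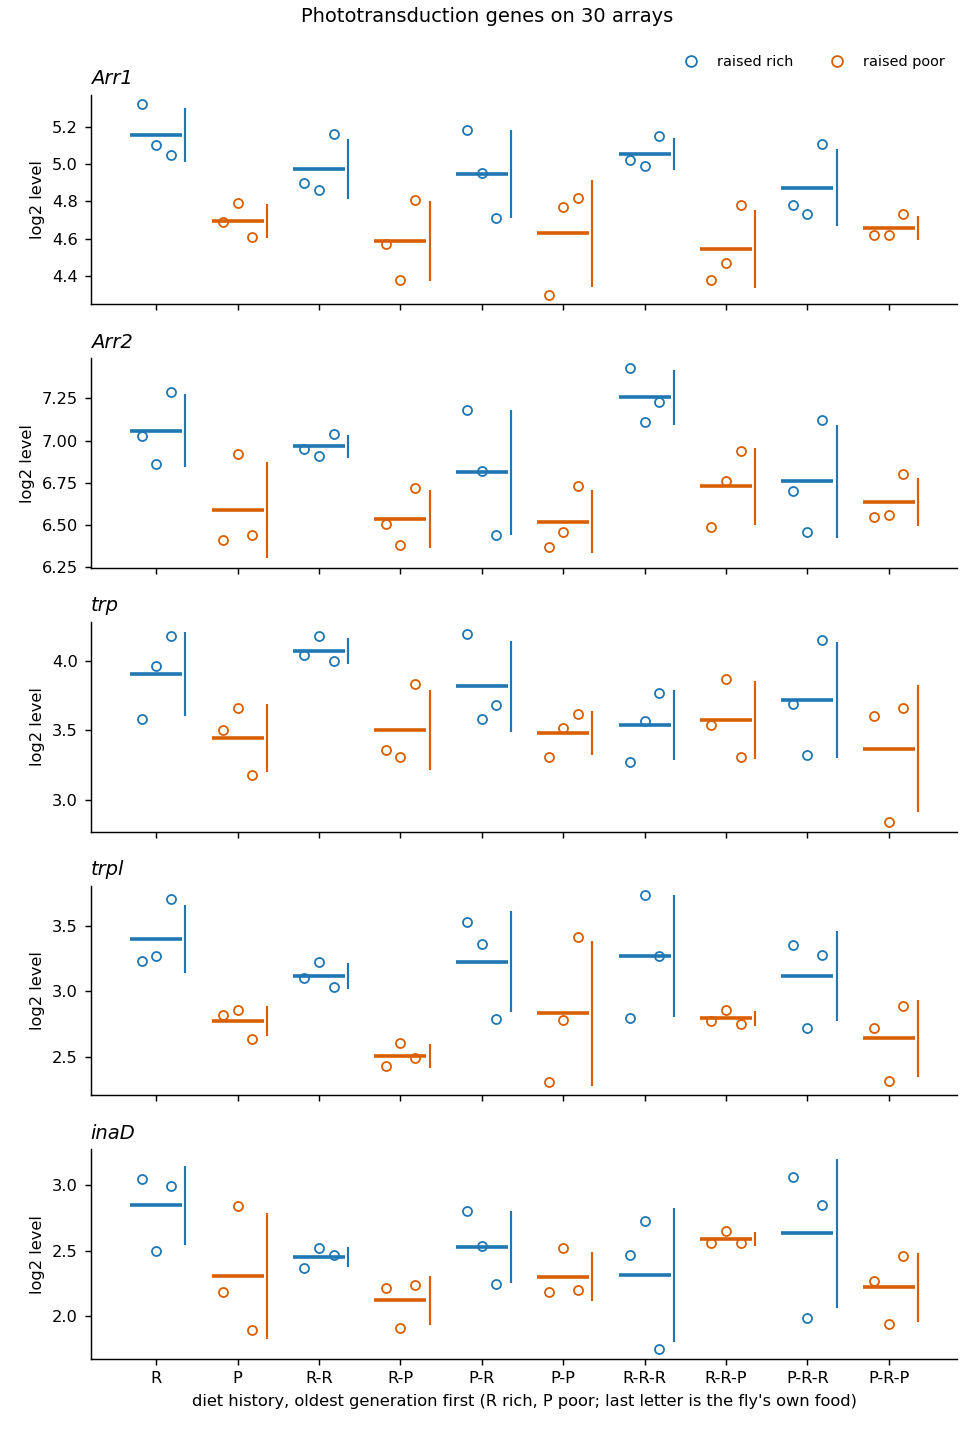
Deposited log2 level (vertical axis, 1 panel per gene, axes not starting at 0) of the 5 measured phototransduction genes in 10 diet histories (horizontal axis). Circles are single arrays in the order of replicates 1, 2 and 3, horizontal bars the group mean and vertical lines 1 SD above and below it (n = 3). For Arr1, Arr2 and trpl the 5 rich-raised means lie above the 5 poor-raised means.

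Arr1, the minor arrestin gene, was the member with the smallest p. Arr1 read 5.32, 5.10 and 5.05 on the 3 arrays of R and 4.69, 4.79 and 4.61 on those of P. With rich-raised parents it read 4.90, 4.86 and 5.16 in R-R and 4.57, 4.38 and 4.81 in R-P. In both pairs all poor-raised arrays lay below all rich-raised ones. With poor-raised parents Arr1 read 5.18, 4.95 and 4.71 in P-R and 4.30, 4.77 and 4.82 in P-P, so the values overlapped. In F2 it read 5.02, 4.99 and 5.15 in R-R-R and 4.38, 4.47 and 4.78 in R-R-P. After poor-raised grandparents it read 4.78, 4.73 and 5.11 in P-R-R and 4.62, 4.62 and 4.73 in P-R-P. The former F2 pair did not overlap, and the latter met at 4.73. Over the 15 arrays of each food, rich-raised males ranged from 4.71 to 5.32 with a median of 5.02 and poor-raised males from 4.30 to 4.82 with a median of 4.62. All 15 poor-raised arrays lay below the rich-raised median, and 9 of them below the lowest rich-raised array. The average difference was -0.38 ± 0.07 (limma adjusted p = 0.00122), with a 95% interval from -0.52 to -0.24. Over the 30 fits that leave out 1 array each, the adjusted p ran from 6.23e-04 to 0.00331. The call ended when all arrays of replicate number 1 were left out (-0.30 ± 0.08, limma adjusted p = 0.132). Without the 4 arrays that stood apart the difference was -0.35 ± 0.08 (limma adjusted p = 0.0149).

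Arr2, the major arrestin gene, differed by a similar amount with more spread between arrays. Its values were 7.03, 6.86 and 7.29 in R against 6.41, 6.92 and 6.44 in P. Replicate 2 of P thus lay above the lowest array of R. In F1 males of rich-raised parents Arr2 read 6.95, 6.91 and 7.04 in R-R and 6.51, 6.38 and 6.72 in R-P, without overlap. In those of poor-raised parents it read 7.18, 6.82 and 6.44 in P-R and 6.37, 6.46 and 6.73 in P-P, with overlap. The F2 arrays read 7.43, 7.11 and 7.23 in R-R-R and 6.49, 6.76 and 6.94 in R-R-P, again without overlap. They read 6.70, 6.46 and 7.12 in P-R-R and 6.55, 6.56 and 6.80 in P-R-P, the pair with the smallest difference for this gene. All 15 poor-raised arrays lay below the rich-raised median of 7.03, and 3 of them below the lowest rich-raised array at 6.44. The average difference was -0.37 ± 0.08 (limma adjusted p = 0.0122), with a 95% interval from -0.54 to -0.20. The size hardly moved without replicates 1 and 3 of R-R (-0.36 ± 0.09), but the call ended (limma adjusted p = 0.0591). It ended too when the average left out the pair of R and P (limma adjusted p = 0.062), of R-R and R-P (0.0608) or of R-R-R and R-R-P (0.0676), at differences of -0.34, -0.35 and -0.33. Leaving out all arrays of replicate number 1 also ended it (-0.26 ± 0.11, limma adjusted p = 0.468). Without all 4 arrays that stood apart the difference was -0.37 ± 0.09.

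The channel gene trpl had the largest difference of the 5 genes. In F0 it read 3.23, 3.27 and 3.70 on the arrays of R and 2.82, 2.86 and 2.64 on those of P. In F1 it read 3.10, 3.22 and 3.03 in R-R and 2.43, 2.61 and 2.49 in R-P. Neither pair overlapped, and the R-P arrays were the lowest group for this gene. The values were 3.53, 3.36 and 2.79 in P-R and 2.31, 2.78 and 3.41 in P-P, a pair in which replicate 3 of P-R was low and replicate 3 of P-P high. The F2 values were 2.80, 3.73 and 3.27 in R-R-R and 2.77, 2.86 and 2.75 in R-R-P. They were 3.35, 2.72 and 3.28 in P-R-R and 2.72, 2.32 and 2.89 in P-R-P. In each F2 pair the lowest rich-raised array lay within the poor-raised values. Of 15 poor-raised arrays 14 lay below the rich-raised median of 3.27, and 6 lay below the lowest rich-raised array at 2.72. The average difference was -0.51 ± 0.11 (limma adjusted p = 0.00581), with a 95% interval from -0.73 to -0.30. The call held in each of the 30 fits without 1 array (limma adjusted p from 8.71e-04 to 0.0139). It ended when all arrays of replicate number 1 were left out (limma adjusted p = 0.0918), and also when those of number 2 were. Without the 4 arrays that stood apart the difference was -0.59 ± 0.12.

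The other channel gene, trp, did not pass the test. It read 3.58, 3.96 and 4.18 in R against 3.50, 3.66 and 3.18 in P. In F1 it read 4.04, 4.18 and 4.0 in R-R against 3.36, 3.31 and 3.83 in R-P, the only pair without overlap for this gene. It read 4.19, 3.58 and 3.68 in P-R against 3.31, 3.52 and 3.62 in P-P. In F2 the mean of trp was not lower after poor food in each line: the arrays read 3.27, 3.57 and 3.77 in R-R-R against 3.54, 3.87 and 3.31 in R-R-P. They read 3.69, 3.32 and 4.15 in P-R-R against 3.60, 2.84 and 3.66 in P-R-P. The means were lower after poor food in 4 of 5 pairs, and in the line of R-R-R they differed by 0.04 the other way. On average the difference was -0.34 ± 0.10 (limma adjusted p = 0.0992), with a 95% interval from -0.55 to -0.13. Leaving out replicate 2 of P-R-R, 1 of the 2 arrays with ovary transcripts, brought trp past the threshold (-0.38 ± 0.10, limma adjusted p = 0.0464), and leaving out both did not (adjusted p = 0.0738). Without all 4 arrays that stood apart the difference was -0.38 ± 0.11.

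The scaffold gene inaD had the smallest difference and did not pass. Its values were 3.05, 2.50 and 2.99 in R and 2.19, 2.84 and 1.90 in P. The F1 arrays read 2.37, 2.52 and 2.47 in R-R, 2.22, 1.91 and 2.24 in R-P, 2.80, 2.54 and 2.25 in P-R and 2.19, 2.52 and 2.20 in P-P. Of these 3 pairs, that of R-R and R-P alone did not overlap. The F2 arrays read 2.47, 2.73 and 1.75 in R-R-R, 2.56, 2.65 and 2.56 in R-R-P, 3.06, 1.99 and 2.85 in P-R-R and 2.27, 1.94 and 2.46 in P-R-P. Replicate 3 of R-R-R was the lowest of all 30 arrays, and in that pair the poor-raised mean was higher, by 0.27. On average inaD differed by -0.25 ± 0.11 (limma adjusted p = 0.438), with a 95% interval from -0.48 to -0.01. Without the 4 arrays that stood apart the difference was -0.30 ± 0.12.

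**Figure D2:**
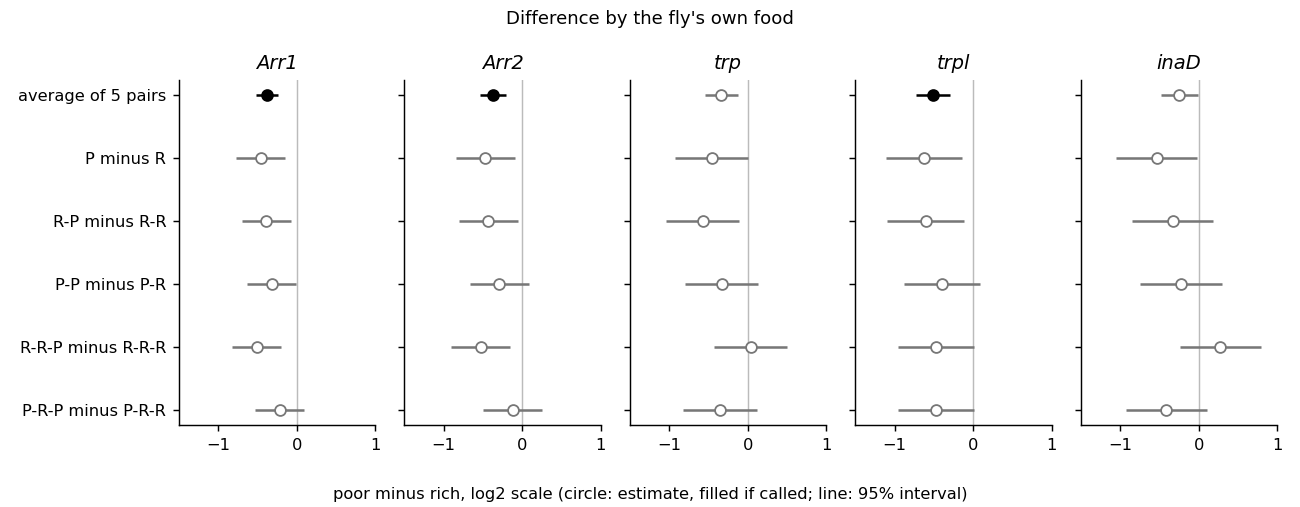
Difference between poor-raised and rich-raised males (horizontal axis, poor minus rich, log2 scale) for each gene, on average over 5 pairs and in each pair (vertical axis). Circles are estimates, filled where called, and lines are 95% intervals of the model fitted to 30 arrays. The averages of Arr1, Arr2 and trpl are called and no single pair is.

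Taken one pair at a time, the same genes differed by amounts that 3 arrays against 3 did not resolve. Limma called 0 of the 25 differences (5 genes in 5 pairs), where 0.183, 0.601, 0.0523, 0.0588 and 0.0719 percent of probe sets were called in the pairs from R and P to P-R-R and P-R-P, in the order given above. Calls lower in poor-raised males made up 0.098, 0.47, 0.0523, 0.0457 and 0.0523 percent in the same order. At an unadjusted p under 0.05 there were 4 genes for P minus R, 4 for R-P minus R-R, 1 for P-P minus P-R, 2 for R-R-P minus R-R-R and 0 for P-R-P minus P-R-R. Of all 15309 probe sets 957, 1367, 670, 1186 and 1351 did so in the same order, a far larger share than was called. Arr1 ranged over the pairs from -0.22 to -0.51, Arr2 from -0.12 to -0.53 and trpl from -0.39 to -0.63, each lower in 5 of 5 pairs. A lower mean in all 5 pairs was found for 4.47 percent of all probe sets. Every poor-raised array lay below every rich-raised array for 2 of the 5 genes in P against R (Arr1 and trpl, background 6.06 percent), 5 of 5 in R-P against R-R (7.62 percent), and 0 of 5 in P-P against P-R (5.09 percent). In F2 it did so for 2 of 5 genes in R-R-P against R-R-R (Arr1 and Arr2, 5.43 percent), while P-R-P overlapped with P-R-R for all genes (0 of 5, 5.55 percent).

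The pair of R-R and R-P, in which all 5 genes separated, holds 3 of the 4 arrays that stood apart. Its differences were -0.39 ± 0.15 for Arr1, -0.43 ± 0.18 for Arr2, -0.57 ± 0.23 for trp, -0.61 ± 0.24 for trpl and -0.33 ± 0.25 for inaD. Without those arrays, which leaves 1 array of R-R that is assumed to vary like the other groups, they were -0.17 ± 0.22, -0.30 ± 0.27, -0.59 ± 0.33, -0.76 ± 0.35 and -0.29 ± 0.34. In the pair of P-R-R and P-R-P, the fit without the 2 arrays with ovary transcripts moved Arr2 from -0.12 ± 0.18 to -0.27 ± 0.20, trp from -0.35 ± 0.23 to -0.55 ± 0.24 and inaD from -0.41 ± 0.25 to -0.73 ± 0.24. None of these differences passed in limma, with or without the arrays.

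Whether the response to own food itself depended on ancestry or generation was tested directly. Limma called 0 of 5 genes for the interaction of own and parental food in F1 (background 0.00653 percent of probe sets). It called 0 of 5 for that of own and grandparental food in F2 (background 0 percent). At an unadjusted p under 0.05 there were 0 of 5 in either, and 745 and 1169 of all 15309 probe sets. The F1 interactions ran from 0.07 ± 0.21 (Arr1) to 0.24 ± 0.32 (trp). Without the 4 arrays that stood apart that of Arr1 changed sign to -0.15 ± 0.27, that of Arr2 went from 0.14 to 0.00 and that of trpl from 0.21 to 0.37 ± 0.42. The F2 interactions ran from -0.68 ± 0.36 for inaD, whose sign differed between the 2 lines, to 0.40 ± 0.26 for Arr2, and that of trpl was 0.00 ± 0.33. Without the 4 arrays the F2 interaction was -1.01 ± 0.34 for inaD (unadjusted p = 0.00709, limma adjusted p = 0.5), -0.59 ± 0.33 for trp, 0.25 ± 0.27 for Arr2 and -0.20 ± 0.35 for trpl. For Arr1 the 95% interval of the F2 interaction reached from -0.15 to 0.73, so a loss of the whole own-food difference under poor ancestry lies inside it. An F test over the 3 generations with rich-raised ancestors called 0 of 5 genes for a change of the own-food difference (limma adjusted p from 0.745 to 0.989, background 0 percent). At an unadjusted p under 0.05 there were 0 of 5 genes and 1064 of all 15309 probe sets.

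The next question was whether the food of the parents left a trace in F1 males. The 5 genes showed none that passed the test: limma called 0 of 5 for parental food on average (background 0.0196 percent). It called 0 in males raised rich (0.0523 percent) and 0 in males raised poor (0.0131 percent). At an unadjusted p under 0.05 there were 0 of 5 in any of the 3, and 1037, 840 and 1007 of all 15309 probe sets in the same order. The average differences by parental food were 0.01 ± 0.11 for Arr1, -0.09 ± 0.13 for Arr2, -0.14 ± 0.16 for trp, 0.22 ± 0.17 for trpl and 0.13 ± 0.18 for inaD. The 95% interval for Arr1 reached from -0.21 to 0.23, and that for trpl from -0.13 to 0.56. In males raised poor trpl averaged 2.83 after poor-raised parents and 2.51 after rich-raised ones, a difference of 0.32 ± 0.24, with replicate 3 of P-P the highest of these arrays at 3.41. Without the 4 arrays that stood apart the average differences by parental food were 0.01 ± 0.13 for Arr1, -0.10 ± 0.16 for Arr2, -0.24 ± 0.20 for trp, 0.19 ± 0.21 for trpl and 0.04 ± 0.20 for inaD, and none passed.

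For the food of the grandparents, which reached F2 males through rich-raised parents, limma again called 0 of 5 genes on average, in males raised rich and in males raised poor, where 0 percent of probe sets were called in each. Arr2 alone had an unadjusted p under 0.05, on average (0.0311) and in males raised rich (0.0117), with limma adjusted p of 0.864 and 0.467. Such a p was found for 843 and 1312 of all 15309 probe sets in these 2 comparisons. In males raised rich Arr2 averaged 7.26 ± 0.16 (SD, n = 3) in R-R-R and 6.76 ± 0.33 in P-R-R, a difference of -0.50 ± 0.18. Its arrays overlapped by 1 value, replicate 3 of P-R-R at 7.12 against the lowest R-R-R array at 7.11. On average over both foods the differences by grandparental food were -0.03 ± 0.11 for Arr1, -0.30 ± 0.13 for Arr2, -0.01 ± 0.16 for trp, -0.15 ± 0.17 for trpl and -0.03 ± 0.18 for inaD. The 95% interval of Arr1 reached from -0.25 to 0.19. Without the 4 arrays, of which replicate 2 of P-R-R belongs to this comparison, Arr2 differed by -0.35 ± 0.20 in males raised rich (unadjusted p = 0.102) and by -0.22 ± 0.14 on average. In the same fit inaD differed by 0.64 ± 0.25 in males raised rich (unadjusted p = 0.0192, limma adjusted p = 0.616), against 0.32 ± 0.25 with all arrays. The averages of Arr1, trp and inaD, near 0 with all arrays, changed sign to 0.00, 0.09 and 0.14.

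**Figure D3:**
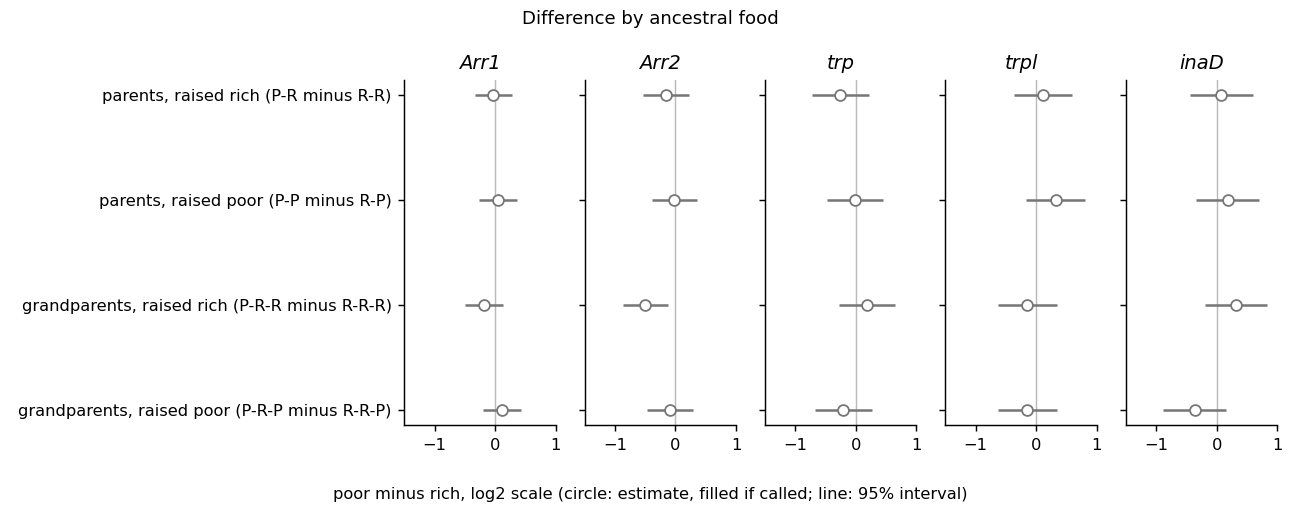
Difference by the food of parents or grandparents (horizontal axis, poor minus rich, log2 scale) in males raised rich or poor (vertical axis), for each gene. Circles are estimates and lines 95% intervals of the model, and no difference is called.

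Ranking the 10 groups by their mean gave the same split for Arr1, Arr2 and trpl: the 5 rich-raised groups stood above the 5 poor-raised groups, an order found for 1.16 percent of all probe sets. Arr1 ran from 5.16 ± 0.14 (SD, n = 3) in R through R-R-R, R-R, P-R and P-R-R to P, P-R-P, P-P, R-P and 4.54 ± 0.21 in R-R-P. Arr2 ran from 7.26 ± 0.16 in R-R-R through R, R-R, P-R and P-R-R to R-R-P, P-R-P, P, R-P and 6.52 ± 0.19 in P-P. The order of trpl began at 3.40 ± 0.26 in R, went on with R-R-R, P-R, R-R and P-R-R, and ended with P-P, R-R-P, P, P-R-P and 2.51 ± 0.09 in R-P. Neighbours in these orders overlapped in their array values in all cases, for all 5 genes, and the widest step of trpl, 0.28, lay between P-R-R and P-P. For trp the group R-R-R, at 3.54 ± 0.25, fell among the poor-raised groups, and the order ran from 4.07 ± 0.09 in R-R to 3.37 ± 0.46 in P-R-P. For inaD R-R-P, at 2.59 ± 0.05, stood among the rich-raised groups between 2.85 ± 0.30 in R and 2.12 ± 0.19 in R-P. Among the groups with rich food in every generation, R, R-R and R-R-R, an F test called 0 of 5 genes (limma adjusted p from 0.725 to 0.951, background 0.00653 percent). At an unadjusted p under 0.05 there were 0 of 5 genes and 1145 of all 15309 probe sets. An F test over all 10 groups, with 9 degrees of freedom, called 0 of 5 as well (background 0.882 percent). At an unadjusted p under 0.05 there were 3, with limma adjusted p of 0.139 for Arr1, 0.228 for Arr2 and 0.31 for trpl. Such an unadjusted p was found for 1416 of all 15309 probe sets in this test.

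The 5 genes also varied together from array to array. Over the 30 arrays Pearson's r was 0.81 between Arr1 and Arr2, 0.71 between Arr1 and trpl and 0.66 between trp and trpl, and the lowest of the 10 pairs was 0.43 for Arr1 and inaD. After subtracting each group's mean, which removes the diet histories, r was 0.72 between Arr1 and Arr2, 0.62 between trp and trpl and 0.33 between Arr1 and inaD. These are descriptions of arrays that share normalization and sample composition. The own-food differences of the genes were compared in all 10 pairs with an exact two-sided permutation test, which exchanges food labels within each of the 5 pairs of groups. The gap trpl minus inaD, -0.27, was the widest (exact permutation p = 0.0385, adjusted over the 10 pairs 0.385), followed by trp minus trpl at 0.18 (p = 0.0774 by exact permutation, adjusted 0.387). Between Arr1 and Arr2 the gap was -0.01 (exact permutation p = 0.875). The called and the uncalled genes of the set were therefore not shown to differ in their response.

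**Figure D4:**
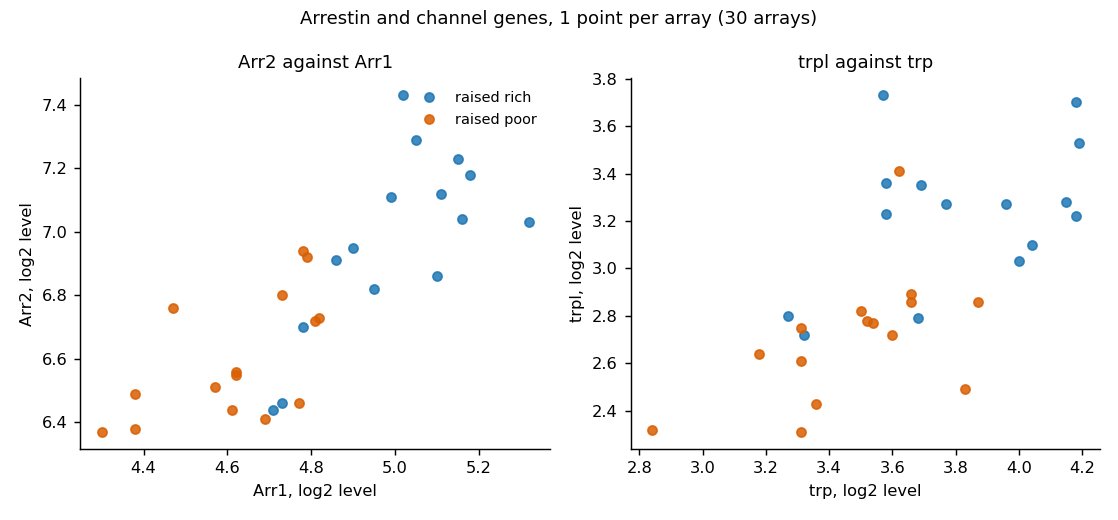
Level of Arr2 against Arr1 (left) and of trpl against trp (right), both axes in deposited log2 values, with 1 point for each of 30 arrays coloured by the fly's own food. Rich-raised and poor-raised arrays overlap less along the axes of Arr1 than along those of trp.

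The remaining genes of the cascade did not shift as a group. Of 37 other phototransduction genes listed, 30 had a probe set, and limma called 1 higher and 0 lower in poor-raised males. Of the 30, 12 lay below 0 and 18 above, with a median of 0.03. At an unadjusted p under 0.05, 3 were lower and 2 higher, where 1562 of all 15309 probe sets had such a p. The median level of the list was 1.26, while inaD, the dimmest of the 5 members, averaged 2.43. A fall in the dimmer genes of the list may therefore not be detectable. The list was chosen with earlier results of these data known, and 1.84 percent of all probe sets were called in this contrast. The called gene was ninaG, for an oxidoreductase that makes the rhodopsin chromophore (0.25 ± 0.06, limma adjusted p = 0.0239), which lies near the floor of the scale at a mean of 0.88. Its call ended when R-R lost replicate 1 (limma adjusted p = 0.0502) or both 1 and 3 (0.0874), and when all 4 arrays that stood apart were left out (0.0658). The gene of the list with the most negative difference was inaF-B, for a small protein required by the TRP channel, at -0.48 ± 0.13 with a lower mean in 5 of 5 pairs (limma adjusted p = 0.0509). It averaged 3.89 to 4.19 in R, R-R, R-R-R and P-R-R, 3.72 in P-R, and 3.33 to 3.71 in the 5 poor-raised groups. Over 47 alternatives its limma adjusted p ran from 0.0153 to 0.312, and 12 of them called it.

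Other components of the cascade that are named here did not pass. The eye G protein gene Gbeta76C differed by -0.05 ± 0.09, the diacylglycerol kinase gene rdgA by 0.17 ± 0.07 (adjusted p = 0.417) and Pdh, a retinoid dehydrogenase gene of the eye, by 0.12 ± 0.09. The eye protein kinase C gene inaC, named after its value was seen because its product sits on the INAD scaffold, read -0.24 ± 0.08 (limma adjusted p = 0.191). Its mean was lower after poor food in 4 of 5 pairs, from 3.42 ± 0.14 (SD, n = 3) in R against 2.89 ± 0.10 in P, the widest pair, to 2.92 ± 0.33 in R-R-R against 2.97 ± 0.32 in R-R-P. The average without the pair of R and P was -0.16 (limma adjusted p = 0.655). The G protein gene Galphaq, also named after its value was seen, read -0.01 ± 0.06.

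**Figure D5:**
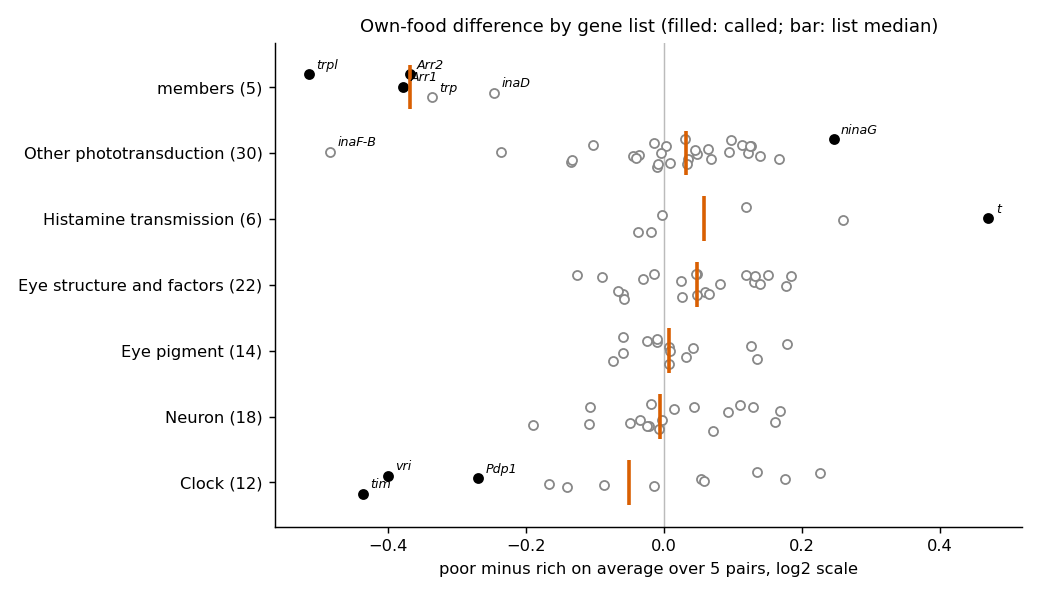
Own-food difference on average over 5 pairs (horizontal axis, poor minus rich, log2 scale) for each measured gene of 7 lists (vertical axis, number measured in parentheses, dots spread vertically at random). Filled circles are called and the bar is the list median, at -0.37 for the 5 members, 0.03 for the other phototransduction genes and -0.05 for the clock genes.

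Genes that mark the eye by structure rather than by signalling gave no lower calls. For own food 1.84 percent of all 15309 probe sets were called, and 1562 had an unadjusted p under 0.05. Of 22 measured genes of eye structure, lens and photoreceptor transcription factors limma called 0, with 4 at an unadjusted p under 0.05, all higher, and a median of 0.05. The rhabdomere protein gene chp, at a mean level of 5.26, read 0.12 ± 0.09. The median level was 0.73 in this list of 22, 0.77 among the eye pigment genes and 0.63 among the histamine genes. Many of these genes thus lay near the floor of the scale, where a fall may not be detectable. Of 14 eye pigment genes 0 were called (2 at an unadjusted p under 0.05, both higher, median 0.01), and of 18 neuron genes 0 (1 lower and 1 higher at an unadjusted p under 0.05, median -0.01), among them nSyb, for synaptobrevin of neurons, at 0.13 ± 0.07. Of 6 genes of histamine, the photoreceptor transmitter, 1 was called higher: t, for the hydrolase that regenerates histamine and that also acts in cuticle pigmentation (0.47 ± 0.08, limma adjusted p = 4.23e-04). It ranged from 3.12 to 4.07 with a median of 3.80 in rich-raised males and from 3.74 to 4.75 with a median of 4.16 in poor-raised males. Its counterpart e, for the enzyme that conjugates histamine in glia, read 0.26 ± 0.07 (limma adjusted p = 0.0737). Hdc, for histidine decarboxylase, which makes histamine, read 0.12 ± 0.08.

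Some clock genes were called in the same contrast, in which 0.98 percent of all probe sets were called lower. Of 12 measured clock genes limma called 3 lower and 0 higher, with a median of -0.05: tim (-0.44 ± 0.10, adjusted p = 0.0119) and vri (-0.40 ± 0.10, adjusted p = 0.0227), both transcribed rhythmically under the clock, and Pdp1 (-0.27 ± 0.05, adjusted p = 0.00253). Of the 12, 7 lay below 0 and 5 above, and at an unadjusted p under 0.05, 4 were lower and 1 higher. The brightest uncalled gene of the list, cwo, read -0.17 ± 0.07 (limma adjusted p = 0.335), with a lower mean in 4 of 5 pairs. Clk, for the activator of tim, vri and Pdp1, read 0.18 ± 0.11. Without replicates 1 and 3 of R-R 1 of the 12, Pdp1, was called, where tim read -0.39 ± 0.11 and vri -0.26 ± 0.08. With all arrays of 1 replicate number left out, Pdp1 was called in none of the 3 fits (limma adjusted p = 0.0983, 0.0805 and 0.0596), tim in none (0.0596, 0.183 and 0.0515) and vri in 1, without the arrays numbered 2 (0.374, 0.00105 and 0.339). Over the 30 arrays the mean of the 5 phototransduction genes, each centred on its own mean, correlated with tim at r = 0.51, vri at 0.35 and Pdp1 at 0.42. After subtracting group means r was 0.35, -0.09 and -0.19. The part of the clock genes in the result was not tested.

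Single markers of other tissues were called for own food, where 1.84 percent of all probe sets were called. Of 5 measured muscle markers 1 was called higher in poor-raised males, TpnC4 (0.58 ± 0.11), and all 5 differences lay above 0, with a median of 0.40 and array means of 4.65 to 6.06 in rich-raised and 5.52 to 6.35 in poor-raised males. Of 2 fat body markers Lsp2 was called higher (0.85 ± 0.17). Without replicates 1 and 3 of R-R, set apart above for these very genes, TpnC4 read 0.44 ± 0.09 (limma adjusted p = 0.0104), the muscle median was 0.27 and Lsp2 read 0.61 ± 0.14 (limma adjusted p = 0.0247). Of 5 accessory gland markers Dup99B, for a peptide of the ejaculatory duct, was called higher (0.51 ± 0.06, limma adjusted p = 3.78e-06, higher in 5 of 5 pairs), with a list median of 0.00. The 10 testis and 11 ovary and yolk markers gave 0 calls, with 2 and 0 at an unadjusted p under 0.05. The 4 eye markers other than the members, chp, inaC, Hdc and gl, gave 0 calls, and their array means ran from 1.91 to 2.57 in rich-raised and 2.13 to 2.47 in poor-raised males. The 4 neuron markers gave 0 calls (1.92 to 2.70 and 2.20 to 2.68), and so did the 5 antennal markers (0.27 to 0.67 and 0.27 to 0.57), where Or22a lay at 0.11. The lowest rich-raised means of the eye and neuron markers were those of replicate 2 of P-R-R, 1 of the 2 arrays with ovary transcripts. Without these 2 arrays the lowest means on either food were 2.13 for the eye and 2.20 for the neuron markers. Array by array, the 5 phototransduction genes followed the 18 neuron genes at r = 0.41 over 30 arrays and 0.66 after subtracting group means, and the 30 other phototransduction genes at 0.35 and 0.57. Against the accessory gland markers r was -0.03 and 0.51, and against the ovary and yolk markers -0.34 and -0.49. Without the 2 arrays with ovary transcripts the own-food difference was -0.37 for Arr1, -0.38 for Arr2 and -0.56 for trpl. The part of tissue makeup in the own-food difference was not tested.

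The genes whose profile over the 30 arrays was most like that of the 5 phototransduction genes were sought among 3337 probe sets of other genes with a mean of at least 2. The 8 highest were Lpin (Pearson's r = 0.77), lncRNA:CR43264 (0.76), Alas (0.75), CG7272 (0.75), Hsc70-5 (0.73), CG9312 (0.72), CG8206 (0.72) and CG3285 (0.71). Alas, for the first enzyme of heme synthesis, fell by 0.86 ± 0.08 in poor-raised males (limma adjusted p = 1.08e-07), and CG3285 by 1.27 ± 0.09. After subtracting group means r was 0.74 for Lpin, for a phosphatidate phosphatase, and 0.69 for lncRNA:CR43264, while it was 0.35 for Alas and 0.13 for CG3285. The likeness of the first 2 was thus found within groups, and that of CG3285 mostly between them. Lpin itself did not pass for own food (-0.11 ± 0.05, limma adjusted p = 0.423).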

How the data were processed

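Each probe set has 1 log2 value for each array, deposited by the authors after normalization; the submitters' processing notes name GCRMA. The values include some below 0 (-0.56 to 10.78). Neither the logarithm's base nor a GCRMA version is given by these sources. Array medians ran from 0.82 to 0.94, which normalization brings together. With 3 arrays in each group, their number limits how precise a value can be. Groups came from the sample titles.

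Gene names came from the platform annotation: 13441 of 15309 probe sets had 1 symbol, 555 several and 1313 none, and 13064 gene IDs of the first kind matched the current gene table. The members and gene lists were chosen with earlier results of these data known. For a listed gene with several probe sets, the one with the highest mean was used. Of each list, called genes were named (at most 6), with up to 4 of the brightest others, and the 8 genes most like the members.

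The linear model (limma 3.58.1, R 4.3.3) held 1 mean for each of the 10 groups and neither covariate nor filter, and the code was tested on simulated data. Benjamini-Hochberg adjustment ran over 15309 probe sets. Alternatives were quantile normalization, median centring, a filter on dim probe sets, array weights, trended robust moderation, the replicate number as a block, fits of the compared groups only, and fits without single arrays, numbers, pairs or the arrays that stood apart. The exact permutation test between genes and the fit without all 4 arrays that stood apart were added after the data were seen. No sequence was used, as none was given for these genes.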

Additional observations from a re-analysis of the deposited data

How the results depend on the processing

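Of 47 alternatives to the own-food average, 30 left out 1 array each. In 46 of the 47 the number of called phototransduction genes stayed within 1.5 times of 3, so that 2 counted as kept. The exception left out the arrays numbered 1 in all groups, with 20 arrays remaining, where 0 were called. There Arr1 read -0.30 (limma adjusted p = 0.132), Arr2 -0.26 (adjusted p = 0.468) and trpl -0.48 (adjusted p = 0.0918). Calls over all 15309 probe sets also fell in that fit, to 151 from 281 in the main fit. Over all fits that left out arrays by replicate the count ran from 0 to 4. It was 2 without the arrays numbered 2, where 155 of all probe sets were called. Averages without the pair of R and P, of R-R and R-P or of R-R-R and R-R-P also called 2. Over all probe sets these averages called 200, 150 and 224 in the same order. No own-food average of the 5 genes changed sign under any alternative run, though ancestral and interaction estimates near 0 did, and the counts of 0 for single pairs, ancestral food, interactions and F tests stayed at 0 under every alternative run for them. With the replicate number as a block 3 genes were called, as without it; same-numbered arrays deviated from their group means with correlations of -0.10 to 0.11 (1 of 15 above 0.1), so the numbers were not taken as pairs. Without the 2 arrays with ovary transcripts 3 were called, and without replicates 1 and 3 of R-R 2. The call of trpl also ended without the arrays numbered 2 (adjusted p = 0.0838). The gene e was called with the block and not without it. Base-2 logarithms are assumed throughout. Dim genes such as gl and Hdc lie where the method has little range, so that a difference in them may not be detectable.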
